A study of Saccharomyces cerevisiae with 27 samples.

Results

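The 10 hexose transporter genes HXT1 to HXT10 of the budding yeast Saccharomyces cerevisiae were taken by their systematic identifiers from a table of RNA levels with 6664 genes, and all 10 were found there. Their proteins sit in the plasma membrane and carry glucose, fructose and mannose into the cell by facilitated diffusion. The carriers differ in affinity: Hxt1 and Hxt3 work at high glucose, Hxt2, Hxt4, Hxt6 and Hxt7 serve cells in low glucose, and Hxt5 is tied to slow growth. Glucose sets their transcription through the membrane sensors Snf3 and Rgt2, which act on the repressor Rgt1 and its co-factors Mth1 and Std1, and through the Mig1 and Mig2 repressors, which hold genes down in high glucose. HXT6 and HXT7 are near-identical copies that share reads, as are HXT9 and HXT11, so the split of reads within each pair is uncertain.

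The study measured RNA by sequencing in 8 genotypes grown in the rich glucose medium YPD to an OD600 of 0.8 to 1. The wild type BY4741, a laboratory strain, was set beside its deletions sir3Δ, which lacks a subunit of silent chromatin, and arp5Δ, ies6Δ and ies2Δ, which lack parts of the chromatin remodelling complex INO80, and beside a sir3Δ, arp5Δ double deletion. The wild type of a second background, CY337, was set beside ino80Δ (strain CY1315), which lacks the ATPase of that complex. BY4741, sir3, arp5 and ies6 had 3 RNA libraries each, ies2, CY337 and ino80 had 2 each and the double deletion had 1. Chromatin immunoprecipitation with sequencing (ChIP-seq) mapped Arp5 in strain CY1838, labelled wild type, and trimethylated lysine 4 and lysine 79 of histone H3 (H3K4me3 and H3K79me3) in BY4741 and arp5, with 1 library for each antibody and each input. Cells for the Arp5 map had been synchronised with nocodazole and alpha-factor and were harvested at an OD of 0.6, unlike those for RNA.

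The deposited RNA table held 1 value per gene and genotype in FPKM, fragments scaled to gene length and library size, which can be compared between genes. With neither replicates nor read totals, no value carries an error or a test, and a difference is described here by its size. A gene was counted in a comparison if at least 1 of the genotypes compared reached 5 FPKM, and was said to have risen or fallen when log2(FPKM + 1) differed by more than 2-fold; on that scale the change of genes with little RNA is understated. In RNA from whole cultures, fewer cells using a gene and less RNA per cell cannot be told apart. The deleted genes had at most 2.37% of their wild-type FPKM in the strains named for them. Median FPKM over all genes lay between 34.8 and 35.5 in the 6 columns of the BY4741 background and was 46.6 in CY337 and 47.5 in ino80.

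HXT3, a low-affinity carrier that glucose induces, was the most abundant member in 6 of the 8 genotypes and had the smallest ratio of highest to lowest value of the 10. Its gene (YDR345C) lies on the reverse strand of chromosome IV at 1162957 to 1164660 (sacCer3). HXT3 stood at 653 FPKM in BY4741, 1045 in sir3, 538 in arp5, 830.2 in ies6, 773 in ies2, 829.98 in the double deletion, 519.6 in CY337 and 408 in ino80. The highest of these was sir3 and the lowest ino80, 2.56-fold apart. HXT3 passed 2-fold in 0 of the 9 comparisons, and its differences in log2(FPKM + 1) ran from -0.35 in ino80 over CY337 to 0.68 in sir3 over BY4741.

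HXT1, the carrier of lowest affinity, which high glucose induces, rose in the cells without Sir3 and fell in those without Ino80. HXT1 (YHR094C; VIII, 290913 to 292625, reverse strand) stood at 149.8 FPKM in BY4741, 320.3 in sir3, 180.5 in arp5, 177 in ies6, 218 in ies2, 465 in the double deletion, 183 in CY337 and 60.5 in ino80. The pair of strains without Sir3 held the highest values and ino80 the lowest. The log2 difference was 1.09 in sir3 over BY4741 and 1.63 in the double deletion over BY4741, and it was -1.58 in ino80 over CY337. The double deletion also exceeded arp5 alone by 1.36 on this scale and sir3 alone by 0.54, which is within 2-fold. The fall in ino80 was found in the FPKM table alone: in the authors' deposited table of ratios along genes, the mean over the HXT1 gene in ino80 over CY337 was 0.91 on a log scale whose base is not stated, against a median of 0.23 over all genes.

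**Figure D1:**
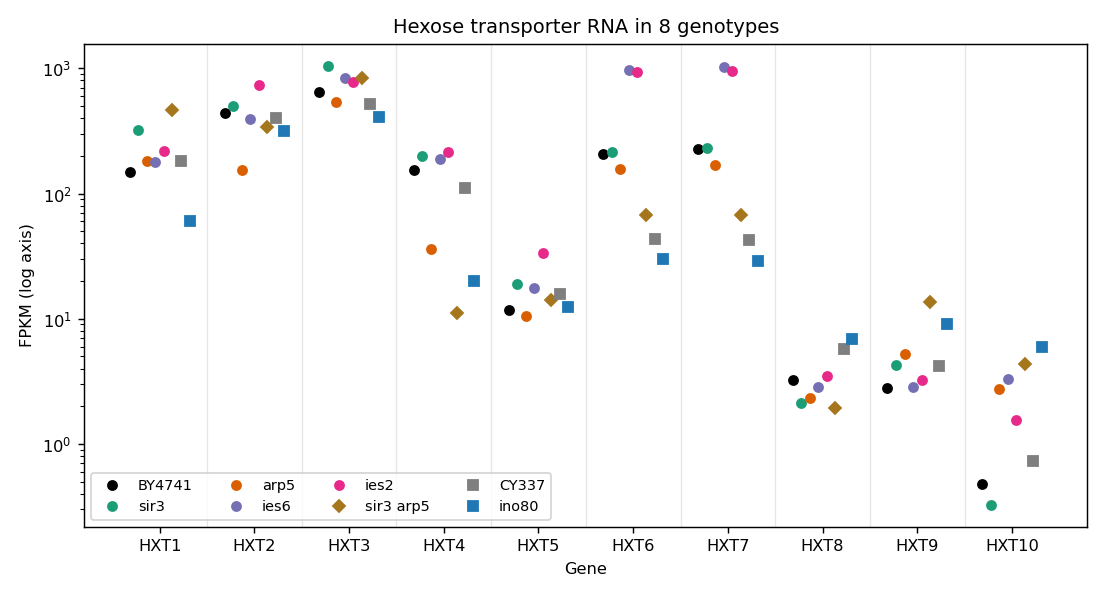
RNA level of each of the 10 transporter genes (x axis) in FPKM on a log axis (y axis), with 1 point for each genotype; circles are BY4741 and its single deletions, diamonds the sir3 arp5 double deletion and squares CY337 and ino80. HXT7 ranges from 28.8 to 1032 FPKM, HXT3 stays between 408 and 1045, and HXT8, HXT9 and HXT10 reach at most 13.6.

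HXT4 and HXT2 are carriers of higher affinity that low glucose induces, and both fell in arp5 cells. HXT4 (YHR092C; VIII, 287081 to 288811, reverse strand) stood at 155 FPKM in BY4741, 199 in sir3, 35.9 in arp5, 189 in ies6, 216 in ies2, 11.1 in the double deletion, 110.02 in CY337 and 20.03 in ino80. The strains without Arp5 or Ino80 lay at 35.9 FPKM or less and the other 5 lay at 110.02 or more. HXT4 fell in arp5 over BY4741 (log2 difference -2.09), in the double deletion over BY4741 (-3.70) and in ino80 over CY337 (-2.40). The ies6 and ies2 strains, which lack other subunits of the complex, had log2 differences of 0.28 and 0.47. The double deletion was lower than either parent genotype: HXT4 fell against arp5 (-1.61) and against sir3 (-4.05).

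The HXT4 fall was also seen in the authors' deposited table of ratios along genes, where the mean over the gene was -1.88 in arp5 over BY4741 and -1.85 in ino80 over CY337. Among the 6692 genes of that table, these values stood at percentiles 0.209 and 0.254. Ratios along genes in the double deletion were not analysed here.

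HXT2 (YMR011W; XIII, 288079 to 289704, forward strand) stood at 442 FPKM in BY4741, 501 in sir3, 155 in arp5, 390.4 in ies6, 734 in ies2, 341 in the double deletion, 398 in CY337 and 317 in ino80. The arp5 value was the lowest and the ies2 value the highest, 4.75-fold apart. HXT2 fell in arp5 over BY4741 (log2 difference -1.51). In the double deletion, which lacks Arp5 too, the log2 difference from BY4741 was -0.37, and HXT2 rose by 1.14 over arp5, which was 0.88 and so within 2-fold under quantile normalization. In ino80 over CY337 it was -0.33 by FPKM, while the mean over the gene in the authors' deposited table of ratios was 0.71.

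HXT6 and HXT7, the high-affinity carriers that cells in low glucose depend on, had the widest range of the family. They lie on the reverse strand of chromosome IV, HXT6 (YDR343C) at 1159608 to 1161320 and HXT7 (YDR342C) at 1154216 to 1155928. HXT7 stood at 228 FPKM in BY4741, 229 in sir3, 168 in arp5, 1032 in ies6, 959 in ies2, 68.0 in the double deletion, 42.9 in CY337 and 28.8 in ino80. HXT6 stood at 207, 215, 157, 973, 937, 68.0, 43.4 and 29.9 FPKM in the same order. The copies kept a ratio of 0.912 to 1.04 in every column and had the same value in the double deletion, so the pair amounts to 1 measurement, although each copy is counted in the member counts.

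The ies6 and ies2 strains held the most RNA of the pair and CY337 and ino80 the least. HXT6 rose by 2.22 in ies6 and by 2.17 in ies2 on the log2 scale, a 4.69-fold and a 4.52-fold rise in FPKM, and HXT7 rose by 2.18 and 2.07. Arp5 binds Ies6 within the complex, yet HXT6 and HXT7 differed from BY4741 by -0.40 and -0.43 in arp5, within 2-fold. In the double deletion they fell against BY4741 (-1.60 and -1.73), against sir3 (-1.64 and -1.74) and against arp5 (-1.19 and -1.29). In ino80 over CY337 the differences were -0.52 and -0.56.

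The wild types themselves differed at this pair. CY337 had 0.209 of the HXT6 and 0.189 of the HXT7 FPKM of BY4741, log2 differences of -2.23 and -2.38. The median over all counted genes was 0.37 in that comparison, so relative to the median gene the gap is wider. The CY337 and BY4741 cultures differ in strain background, and how far culture, growth stage or library preparation differed between them was not tested.

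HXT5, the carrier of slow-growing cells, had little RNA. HXT5 (YHR096C; VIII, 294669 to 296447, reverse strand) stood at 11.7 FPKM in BY4741, 18.9 in sir3, 10.6 in arp5, 17.6 in ies6, 33.6 in ies2, 14.1 in the double deletion, 15.7 in CY337 and 12.4 in ino80. It rose in ies2, by 1.44 on the log2 scale, and the other 7 genotypes lay between 10.6 and 18.9 FPKM. The authors' deposited table of ratios along genes held 1.58 over the HXT5 gene in ies2 over BY4741.

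HXT8, HXT9 and HXT10 had the least RNA, and few of their differences could be counted. HXT9 (YJL219W; X, 19497 to 21200, forward strand), which the drug resistance activators Pdr1 and Pdr3 control together with HXT11, stood at 2.78 FPKM in BY4741, 4.28 in sir3, 5.18 in arp5, 2.84 in ies6, 3.24 in ies2, 13.6 in the double deletion, 4.22 in CY337 and 9.03 in ino80. It rose in the double deletion by 1.95 over BY4741, 1.47 over sir3 and 1.24 over arp5, the last of these 0.87 and so within 2-fold with a pseudocount of 5 FPKM. HXT9 lay under 5 FPKM in BY4741 and sir3, so against these it was counted only where it was high. HXT11, its near copy, had 14.1 FPKM in the double deletion and 3.87 in BY4741.

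HXT10 (YFL011W; VI, 112345 to 113985, forward strand) stood at 0.477 FPKM in BY4741, 0.327 in sir3, 2.77 in arp5, 3.31 in ies6, 1.56 in ies2, 4.33 in the double deletion, 0.734 in CY337 and 5.99 in ino80. All 5 strains without a subunit of INO80 lay above both wild types and sir3, but only ino80 passed 5 FPKM. There the rise over CY337 was 2.01 on the log2 scale; with a pseudocount of 5 FPKM it was 0.94, within 2-fold. HXT10 was thus counted only where it was high. HXT8 (YJL214W; X, 26887 to 28596, forward strand) ranged from 1.93 FPKM in the double deletion to 6.88 in ino80 and passed 2-fold in no comparison.

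Summed over the 10 genes, transporter RNA was highest in ies2 and ies6 and lowest in ino80. The sum was 1853 FPKM in BY4741, 2535 in sir3, 1255 in arp5, 3618 in ies6, 3879 in ies2, 1817 in the double deletion, 1323 in CY337 and 898 in ino80. Relative to its wild type it was 1.37-fold in sir3, 0.677-fold in arp5, 1.95-fold in ies6, 2.09-fold in ies2, 0.980-fold in the double deletion and 0.679-fold in ino80. The make-up of the sum moved with it. HXT6 and HXT7 together made 23.5% of it in BY4741, 17.5% in sir3 and 25.9% in arp5, 55.4% in ies6 and 48.9% in ies2, and 7.49%, 6.52% and 6.54% in the double deletion, CY337 and ino80.

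**Figure D2:**
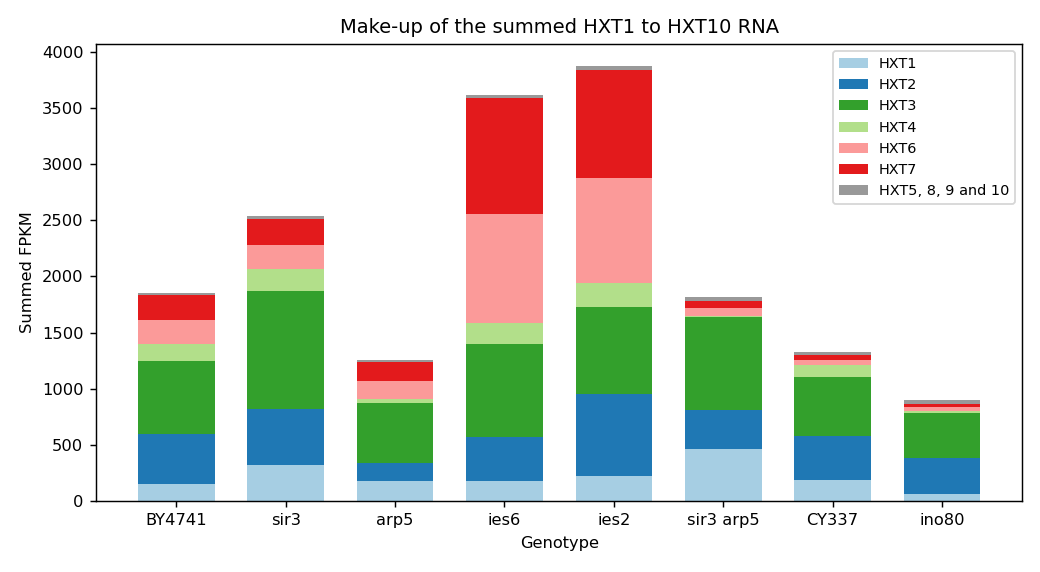
Summed FPKM of the 10 transporter genes (y axis, from 0) in each genotype (x axis), stacked by gene, with HXT5, HXT8, HXT9 and HXT10 drawn as 1 segment. The ies6 and ies2 bars reach 3618 and 3879 FPKM with about as much from HXT6 and HXT7 as from the rest, while in the double deletion, CY337 and ino80 the pair makes at most 7.49% of the bar.

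The order of the members by level followed from these shares. In BY4741 it was HXT3, HXT2, HXT7, HXT6, HXT4, HXT1, HXT5, HXT8, HXT9 and HXT10. The largest step within it was between HXT1 and HXT5, which were 12.8-fold apart, and HXT4 and HXT1 were 1.04-fold apart. HXT7 and HXT6 led the order in ies6 and ies2, ahead of HXT3 by 1.17-fold and 1.21-fold at HXT6. In the double deletion HXT4 came eighth, behind HXT5 and HXT9. No column has an error, so neighbours closer than the unknown spread between cultures cannot be ordered.

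Counted over the family, 1 to 3 members passed 2-fold in each single deletion of the BY4741 background. In sir3 over BY4741, 1 of 7 counted members rose (HXT1) and 0 fell, where 1.96% of 6216 genes rose and 2.14% fell. In arp5, 0 of 8 rose and 2 fell (HXT2 and HXT4), where 6.45% of all counted genes rose and 3.99% fell. In ies6, 2 of 7 rose (HXT6 and HXT7) and 0 fell, against 5.72% and 3.62% of all counted genes. In ies2, 3 of 7 rose (HXT5, HXT6 and HXT7) and 0 fell, against 3.89% and 1.87%. The median log2 difference of the counted members was 0.36 in sir3, -0.34 in arp5, 0.35 in ies6 and 0.73 in ies2, while the median over all counted genes was within 0.03 of 0 in each.

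In the double deletion 5 members passed 2-fold against BY4741, with a larger share of all genes as well. Over BY4741, 2 of 8 rose (HXT1 and HXT9) and 3 fell (HXT4, HXT6 and HXT7), where 16.7% of all counted genes rose and 10.4% fell. Over sir3, 1 of 8 rose (HXT9) and 3 fell (HXT4, HXT6 and HXT7), against 13.8% and 8.66%. In both comparisons HXT9 was counted only through the double deletion, so that it was higher there follows from the filter. Over arp5, 3 of 8 rose (HXT1 and, less firmly as given above, HXT2 and HXT9) and 3 fell (HXT4, HXT6 and HXT7), against 12.2% and 6.54%. This column rests on 1 library, and features under 150 bp held 65.9% of its summed FPKM against 36.2% to 46.5% in the other 7 columns; their part in the values of the members was not tested.

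In ino80 over CY337, 1 of 10 counted members rose (HXT10) and 2 fell (HXT1 and HXT4), against 8.26% and 5.12% of all counted genes. HXT10 was counted only through ino80, so that it was higher there follows from the filter. In CY337 over BY4741, 0 of 8 rose and 2 fell (HXT6 and HXT7), against 8.73% and 3.1%. The comparisons over BY4741 share that column, so their values are set side by side only. The median difference of genes on chromosomes IV, VI, VIII, X and XIII, which carry the members, lay within 0.21 of that of all chromosomes in every comparison, the widest gap being 0.21 for chromosome VIII in the double deletion over arp5.

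**Figure D3:**
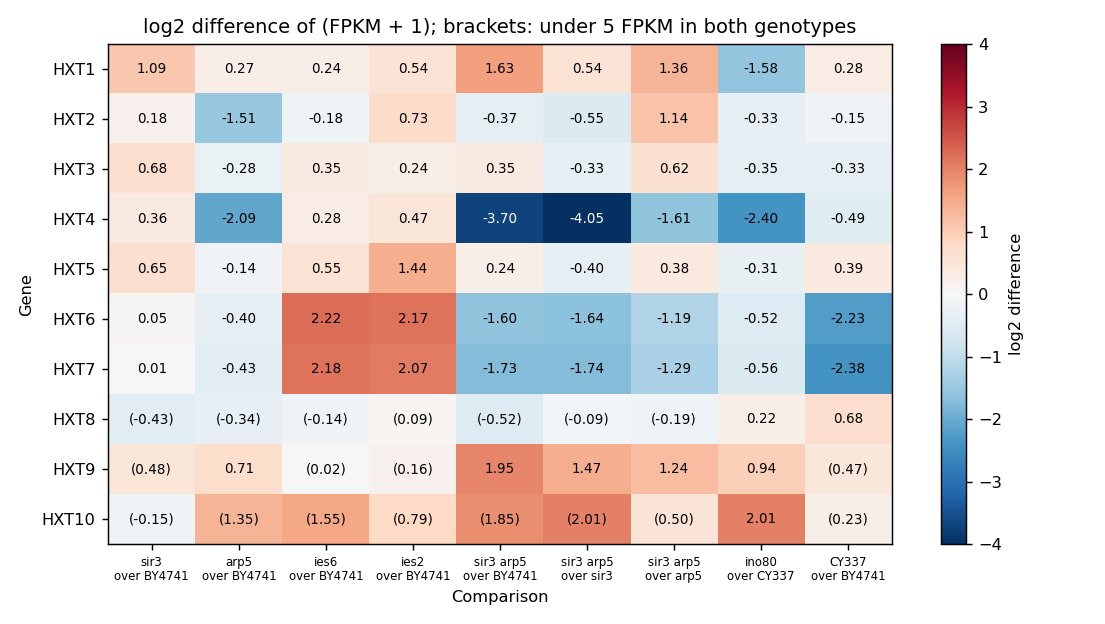
Difference in log2(FPKM + 1) of each transporter gene (rows) in 9 comparisons of genotypes (columns), in red where the first genotype is higher and in blue where it is lower; brackets mark genes under 5 FPKM in both genotypes. HXT4 is lowest in the double deletion over sir3 at -4.05, and HXT6 is highest in ies6 at 2.22.

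Of 10 genes of the Snf3, Rgt2 and Rgt1 pathway, which senses glucose, all were counted and 0 passed 2-fold in sir3, arp5, ies6 and ies2. With the shares of all genes given above, from 1.87% to 6.45% in a direction, 0 or 1 of 10 is near the background. MTH1, the Rgt1 co-factor, stood at -0.96 in arp5 over BY4741, just within 2-fold. In the double deletion over BY4741, MTH1 fell from 31.8 to 10.4 FPKM (-1.53). In the same comparison TUP1, a corepressor that works with Rgt1 and Mig1, rose from 57.8 to 195 FPKM (1.74). TUP1 also rose in ino80 over CY337, from 87.4 to 187 FPKM (1.09). RGT1 itself had log2 differences of -0.08 in sir3, 0.76 in arp5, 0.58 in ies6, 0.39 in ies2, 0.76 in the double deletion and 0.60 in ino80.

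Among 12 genes of the glucose repression pathway, the double deletion had 3 that rose and 2 that fell against BY4741, where 16.7% and 10.4% of all genes did. Those that rose encode repressors, MIG1 from 30.3 to 73.9 FPKM (1.26), MIG2 from 20.01 to 127 (2.60) and MIG3 from 12.5 to 53.3 (2.01), while NRG2, another repressor, fell (-1.42), as did GLC7 (-1.52), which encodes a phosphatase. NRG1, a repressor like NRG2, fell from 151 FPKM in CY337 to 46.6 in ino80 (-1.67) and was higher in CY337 than in BY4741 (1.66). NRG2 also fell in arp5 (-1.76), ies2 (-1.14) and ino80 (-1.37), and MIG2 rose in ies2 (1.31) and ino80 (1.23). In sir3 and ies6 0 of the 12 passed 2-fold, and NRG2 stood at -0.99 in ies6.

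The kinases that trap hexose in the cell also moved. HXK1, a hexokinase that glucose represses, stood at 334 FPKM in BY4741, 344 in sir3, 159 in arp5, 786 in ies6, 623 in ies2, 45.4 in the double deletion, 63.7 in CY337 and 74.4 in ino80. Its highest values were those of ies6 and ies2 and its lowest those of the double deletion and CY337. HXK1 rose in ies6 (1.23) and fell in arp5 (-1.06), in the double deletion (-2.85) and in CY337 over BY4741 (-2.37). HXK2, the main hexokinase in glucose, fell in ies6 alone (-1.07), with -0.96 in ino80, and GLK1, the glucokinase, passed 2-fold in no comparison.

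Some of the genes for the use of other carbon sources, which glucose represses, rose in each of the INO80 subunit deletions. Of 11 such genes, 4 of 9 counted rose in arp5, 2 of 8 in ies6, 6 of 9 in ies2, 3 of 9 in the double deletion over BY4741 and 2 of 10 in ino80, and 0 fell in these. The shares of all counted genes that rose were 6.45%, 5.72%, 3.89%, 16.7% and 8.26% in the same order. SUC2, which encodes invertase, had 48.5 FPKM in BY4741, 107 in arp5 (1.12), 116 in ies2 (1.24) and 134 in the double deletion (1.45), and rose by 1.19 in ino80; in ies6 it stood at 93.1 (0.93). FBP1, a gluconeogenic phosphatase, rose in arp5 (1.27), ies6 (1.07), ies2 (1.57), the double deletion (1.25) and ino80 (1.07). MLS1 (malate synthase) rose in arp5 (1.04), ies2 (1.11) and the double deletion (1.502), but with 2.48 FPKM in BY4741 it was counted only where it was high. The counts given above for arp5, ies2 and the double deletion include MLS1, both among the counted genes and among those that rose. PCK1, a gluconeogenic carboxykinase, rose in arp5 (1.09) and ies2 (1.31), ADR1, an activator of such genes, in ies6 (1.46) and ies2 (1.15), and JEN1, a lactate transporter, in ies2 (1.29). In arp5, where HXT6 and HXT7 stood at -0.40 and -0.43, the median of this list was 0.90.

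The other 7 carriers of the family had little RNA throughout. In the double deletion over BY4741 HXT11 (1.63), GAL2, the galactose permease (1.36), HXT17 (1.33), HXT15 (1.25) and HXT16 (1.09) rose. These 5 of the 7 lay under 5 FPKM in BY4741 and were counted only through the double deletion, so that they were higher there follows from the filter. The highest of these levels was that of HXT11, 14.1 FPKM. HXT13 rose in ies6, from 1.19 to 8.40 FPKM (2.10), and HXT15 rose in ies2 (1.21) and ino80 (1.19). GAL2 rose in arp5, from 2.68 to 7.44 FPKM (1.20). In these comparisons too, HXT13, HXT15 and GAL2 lay under 5 FPKM in the wild type and were counted only where they were high.

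The genes whose levels over the 8 genotypes were most like those of a member were sought among 5353 genes, by the mean absolute distance between log2(FPKM + 1) profiles, each centred on its own mean. For HXT6 and HXT7 they were PGM2 (phosphoglucomutase), MPC3 (a mitochondrial pyruvate carrier) and GPH1 (glycogen phosphorylase), at distances of 0.51 to 0.58, where HXT7 itself varied by 1.47 around its mean. PGM2 had 55.0 FPKM in BY4741, 173 in ies6, 167 in ies2, 14.6 in the double deletion and 15.98 in CY337. For HXT4 they were YGP1 and SPI1, which encode cell wall proteins, and HSP42, a small heat shock protein, at 0.54 to 0.63. YGP1 differs from HXT4 in rising in ies6 and ies2, to 1337 and 1846 FPKM from 427 in BY4741.

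For HXT1 the nearest were TSA1 (a peroxiredoxin), ADH1 (alcohol dehydrogenase) and RPL4A (a ribosomal protein), at 0.28 to 0.29. For HXT2 they were WSC4, GRE3 (aldose reductase) and YBR053C, at 0.21 to 0.25, and for HXT3 they were HTZ1 (the histone variant H2A.Z), YOR135C and GLO1 (glyoxalase), at 0.16 to 0.18. For HXT5 they were SKS1 (a protein kinase), WSC4 and AFG1 (a mitochondrial ATPase), at 0.18 to 0.21. Members that vary little have close neighbours by this measure whatever their pattern: HXT3 and HXT5 varied by 0.36 around their own means.

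The authors' deposited tables of mutant over wild type give the change along each gene in 35 windows, 10 of 100 bp before it, 15 within it and 10 of 100 bp after it. The values are on a log scale whose base is not stated, and the libraries behind each table are not given. For the members that passed 2-fold in sir3, arp5, ies6 and ies2, the mean over the gene had the sign of the FPKM difference in each case. For ino80 it did not at HXT1, as given above. In that comparison HXT3 also stood at 0.58 in the authors' deposited table and at -0.35 by FPKM. The ino80 table followed FPKM less closely over other genes too. Over 1542 genes with at least 100 FPKM in both genotypes, the slope of the mean over the gene on the log2 FPKM ratio was 0.29. It was 0.53 to 0.59 in sir3, arp5, ies6 and ies2 over BY4741.

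Tables by strand held 6 of the 10 members: HXT2, HXT3, HXT5, HXT6, HXT7 and HXT10. What told the strands apart is not stated. In the authors' deposited sense table of ies6, HXT6 and HXT7 stood at 3.65 and 3.76, above their values of 2.11 and 2.03 for both strands. In the sense table of arp5 the same genes stood at 2.13 and 2.24, whereas the authors' deposited table for both strands gave -0.27 and -0.32. HXT10 stood at 2.13 in the authors' deposited antisense table of arp5 and at 1.80 in the sense table.

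**Figure D4:**
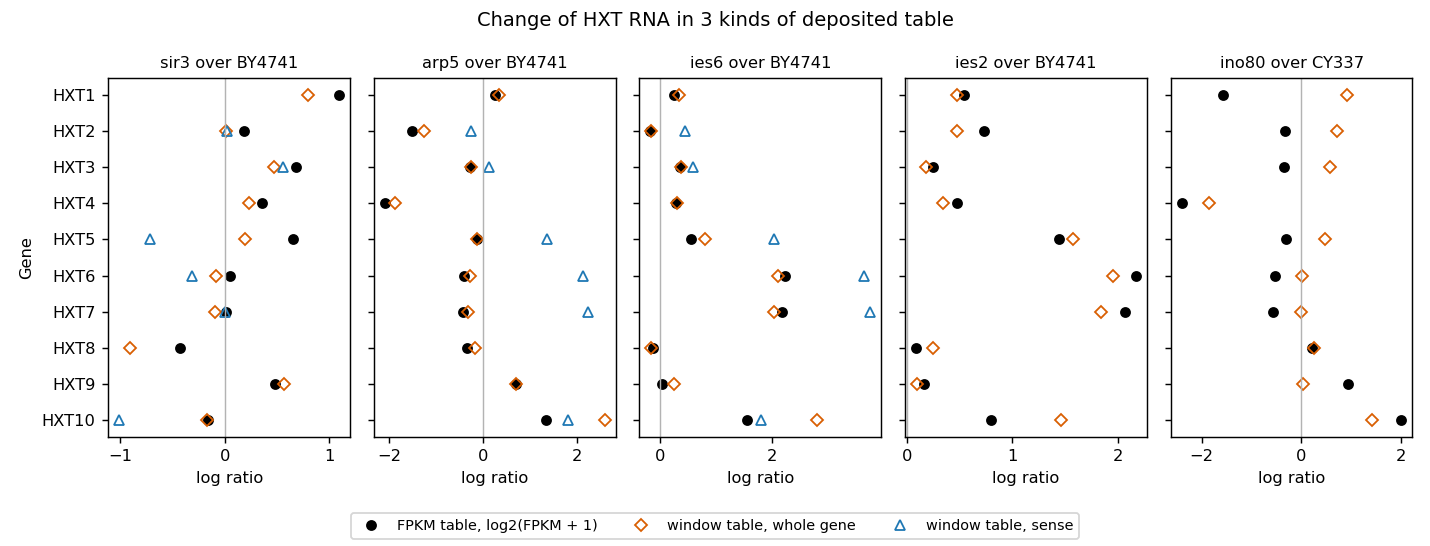
Change of each transporter gene (rows) in 5 comparisons (panels), as the difference in log2(FPKM + 1) (black dots), as the mean over the gene in the authors' table for both strands (open diamonds) and, in the panels of sir3, arp5 and ies6, in the sense table (open triangles); the x axis is a log ratio, in base 2 for the dots and in a base that is not stated for the others. HXT1 in ino80 stands at -1.58 by FPKM and at 0.91 in the authors' table, and HXT6 in arp5 at -0.40 by FPKM and at 2.13 in the sense table.

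The windows before HXT1 stood higher than the gene in arp5, ies6, ies2 and ino80, and lower in sir3. The mean over the 1 kb before it was 2.45 in arp5, 1.504 in ies6, 0.59 in ies2, 2.41 in ino80 and 0.06 in sir3 in the authors' deposited tables, against means over the gene of 0.34, 0.34, 0.48, 0.91 and 0.80. The median over all genes for the 1 kb before a gene was 0.33 in arp5 and 0.50 in ino80. An annotated reading frame on the other strand, YHR095W, begins 317 bp beyond the coding start of HXT1. It stood at 0.934 FPKM in BY4741, 1.65 in sir3, 12.7 in arp5, 5.12 in ies6, 2.15 in ies2, 14.9 in the double deletion, 3.63 in CY337 and 12.05 in ino80, and it rose by 2.82 in arp5, 1.66 in ies6, 3.04 in the double deletion and 1.495 in ino80. YHR095W lay under 5 FPKM in both wild types and was counted only where it was high.

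Arp5 was listed by the authors in 50 bp windows as log2 of precipitate over input, with significant windows only. A window fell in the 500 bp before the coding start of all 10 members, as it did for 94.2% of 6203 genes, so this count does not set the members apart. The strongest windows differed. HXT3 reached 1.58 at 1164751 to 1164800 on chromosome IV, 116 bp before its coding start, and HXT2 reached 1.56 at 287951 to 288000 on chromosome XIII, 103 bp before its own. These stood at percentiles 95.3 and 94.9 among all genes.

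HXT7 reached 1.24 and HXT6 reached 1.03, at percentiles 85.0 and 71.8, and HXT4 reached 0.99 and HXT5 reached 0.87, at percentiles 68.1 and 55.7. HXT1, HXT8, HXT10 and HXT9 had 0.83, 0.82, 0.78 and 0.69, below the median of 0.84 over genes with a window. At a log2 of at least 1, HXT2, HXT3, HXT6 and HXT7 had a window, 4 of 10 where 30.8% of all genes did.

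Within the genes, all 10 members had a listed window, as did 89.9% of all genes. In HXT2 every window was listed, in HXT3 74.3% of windows and in HXT4 66.7%. The share was 45.7% in both HXT6 and HXT7 and 42.9% in HXT9, and it was 11.4% in HXT8, 5.56% in HXT5, 2.94% in HXT10 and 2.86% in HXT1, where the median gene had 20%. HXT2 and HXT4, which fell in arp5, were among the 3 with the largest listed share, together with HXT3, which stood at -0.28 in arp5. Whether the share bears on the RNA change was not tested, and the map is of synchronised CY1838 cells. Reads of HXT6 and HXT7 cannot be placed on 1 copy, and how the authors treated them is not given.

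H3K4me3, a mark of the 5′ ends of active genes, was highest at HXT1, HXT3 and HXT2. Over the first 500 bp of the gene in BY4741 it stood at 1.14, 0.93 and 0.35 (log2 over input) in these, while the other 7 lay between -4.10 and -2.17; the median of all genes was 1.38. HXT6 and HXT7 had -2.60 and -2.17, although their FPKM exceeded that of HXT1. The mean over the gene in arp5 less that in BY4741 was -0.76 at HXT2, -0.69 at HXT3 and -0.73 at HXT5, and 0.35 at HXT6, 0.39 at HXT7 and 0.59 at HXT10. From the 5th to the 95th percentile, all genes ran from -0.77 to 0.58.

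H3K79me3, a mark laid over transcribed genes, was below the median gene over all 10 members in BY4741, between -1.86 at HXT10 and 0.02 at HXT8 where the median gene had 0.14. In arp5 less BY4741 it was higher by 0.75 at HXT2, 0.65 at HXT4, 0.64 at HXT10, 0.52 at HXT9 and 0.45 at HXT1, and it was 0.07 at HXT5, -0.04 at HXT3, -0.05 at HXT7, -0.09 at HXT6 and -0.23 at HXT8. All genes ran from -0.38 to 0.83 between the same percentiles. The level itself ran from -1.73 to 0.98 over all genes in BY4741 and from -1.06 to 0.71 in arp5, a narrower range. HXT10, HXT9, HXT2 and HXT4 were the lowest members in BY4741, at -1.86, -1.67, -1.17 and -1.16. The part of the narrower range in the differences of the members was not tested. The authors' deposited table of the ratio of arp5 over BY4741 held 0.71 for HXT2 and 0.56 for HXT4. These maps rest on 1 library each, and a label field calls the arp5 libraries WT, so their strain was taken from the titles.

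**Figure D5:**
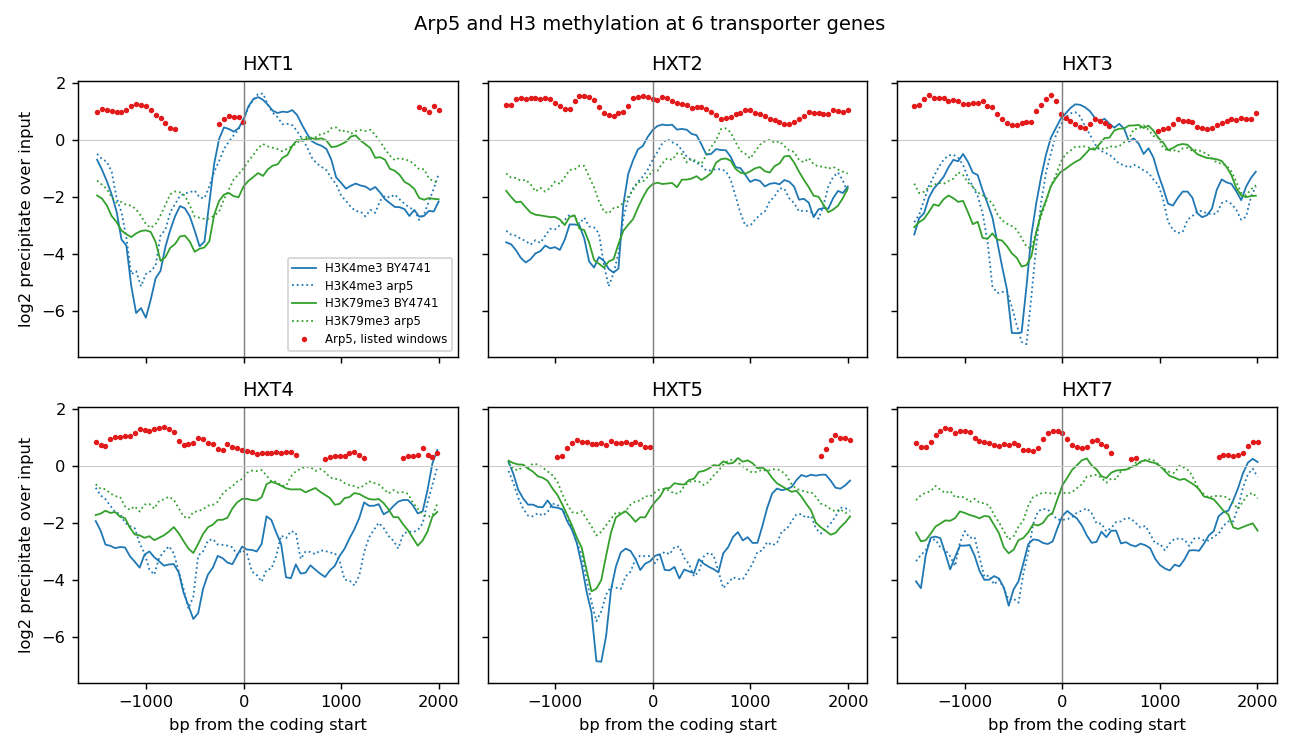
Arp5 (red dots, listed windows only) and the histone marks H3K4me3 (blue) and H3K79me3 (green), in BY4741 (solid) and arp5 (dotted), as log2 of precipitate over input (y axis) against the distance in bp from the coding start (x axis, in the direction of transcription) for 6 transporter genes. H3K4me3 rises above 0 past the start of HXT1, HXT2 and HXT3 and averages below -2 in BY4741 over the first 500 bp of HXT4, HXT5 and HXT7, and Arp5 windows cover the whole of HXT2.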

How the data were processed

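The deposited RNA values are FPKM, 1 column for each of 8 genotypes over 6664 genes, made by the authors. The submitters' processing notes name the build sacCer3, Cuffdiff 2.0.2, TopHat2 2.0.8 and Bowtie for RNA; which libraries entered each column is not stated. Low values are not whole multiples of a common step, so reads were not recovered. The deposited ChIP values are log2 of precipitate over input in 50 bp windows; the same notes name Bowtie 0.12.9. How these were scaled, and how listed windows were called, is not stated. The authors' deposited tables of ratios along genes hold log values of an unstated base.

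The members and gene lists were chosen with earlier results of these data known. The members were compared by log2(FPKM + 1), with 5 FPKM or more in either genotype and a 2-fold limit over all genes but the deleted ones. Genes that could be named were the members, the deleted genes, up to 2 highest and 2 lowest of each list and those past 2-fold, the nearest gene on each side, and the 3 most like each member with a mean of at least 10 FPKM; their values in other comparisons are given beside. Arp5 windows and marks were summarised over 6203 genes of at least 300 bp. The gene models hold coding sequence (99.32% of lengths are multiples of 3), so distances run from the coding start. Symbols matched 5989 genes. Alternatives changed the pseudocount, filter, scaling, the HXT6 and HXT7 split and the promoter; comparison with the tables of ratios along genes was added after the values were seen. Python 3.11.15, pandas 2.3.3, NumPy 2.4.6 and matplotlib 3.10.9 were used; the calling of genes was tested on simulated data.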

Additional observations from a re-analysis of the deposited data

How the results depend on the processing

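No paired analysis was possible because each genotype has 1 deposited column, so neither a replicate block nor a fit without a replicate could be run. Alternatives were pseudocounts of 0.1 and 5 FPKM, no filter or a mean of 10 FPKM, centring, quantile normalization and a summed HXT6 and HXT7. With other Arp5 promoter settings included, 64 of 67 counts of members stayed within 1.5 times. The medians stayed within 2-fold in 63 of 63 cases, but their sign was not held to. In CY337 over BY4741 the median was -0.24 over the counted members and 0.04 over all 10. Of the values of single members, 434 of 439 were kept. Kept meant the same side of 2-fold or, in the authors' deposited tables of ratios along genes, the same sign alone. With HXT6 and HXT7 summed, the members past 2-fold were 1 in ies6 over BY4741 and 1 in CY337 over BY4741, since the pair then counts once. Members with an Arp5 window before the gene were 4 at a log2 of at least 1. Against arp5, the double deletion had 0.87 at HXT9 with a pseudocount of 5 FPKM and 0.88 at HXT2 under quantile normalization; in ino80 over CY337, HXT10 had 0.94 with a pseudocount of 5 FPKM and HXT9 had 1.08 with 0.1 FPKM. HXT1 in ino80 reversed to 0.91 in the authors' deposited table of ratios along genes, and the cause was not tested. Centring and quantile normalization moved the median of all genes by 0.37 and 0.34 in CY337 over BY4741 and by under 0.1 elsewhere. With 1 column per genotype and unknown depth, no difference here has an error, and the levels of HXT8, HXT9 and HXT10 are the least certain.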

Other observations

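Annotated genes beside the members gave the following values, with no test. YFL012W, which ends 1251 bp before HXT10, stood at 7.08 FPKM in BY4741, 6.09 in sir3, 13.5 in arp5, 12.5 in ies6, 8.35 in ies2, 7.43 in the double deletion, 2.61 in CY337 and 27.5 in ino80, and it rose by 2.98 on the log2 scale in ino80 over CY337. AUA1, 1004 bp past HXT10 and linked to amino acid uptake, went from 353 FPKM in BY4741 to 1226 in the double deletion, a rise of 1.79. YJL215C, 115 bp before HXT8, went from 3.49 FPKM in BY4741 to 9.74 in ies2 (1.26), while HXT8 stood at 0.09. YFL012W in CY337 and YJL215C in BY4741 lay under 5 FPKM, so in these comparisons both were counted only where they were high. PAL2, beside HXT5, fell in arp5 (-1.06), where HXT5 stood at -0.14. AHT1, between HXT4 and HXT1, had 4.76 FPKM in BY4741 and 3.79 in the double deletion, where HXT4 had fallen from 155 to 11.1 FPKM. YDR344C, between HXT6 and HXT3, had 10.6 FPKM in BY4741 and 13.4 in ies6, where HXT6 had risen to 973.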
